A study of Mus musculus with 22 samples.

Results

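The regions described here were open chromatin in every frontal cortex library and in no hippocampus library of the same mice. Chromosomes 1 to 19 of GRCm38 were divided into 500 bp bins. A bin was called open in a library when a deposited peak interval covered at least 100 bp of it. Bins open in all 11 cortex libraries and in none of the 11 hippocampus libraries were kept, and neighbouring bins were joined. This gave 8535 cortex-only regions from 9353 bins, covering 4676.5 kb, out of 406190 regions open in 1 or more of the 22 libraries. The mirror rule gave 14384 hippocampus-only regions, and 92286 regions were open in all 22 libraries. The members were thus chosen by the peak calls of all 22 libraries, and the contrast between the tissues is a description here and carries no test.

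Both tissues came from the same 11 adult male wild-type C57BL/6J mice, and chromatin was assayed by OMNI-ATAC-seq, a method that marks accessible DNA through adapters which a transposase places there. All mice, controls included, received corticosterone (CORT) in drinking water for 7 days, 1 injection of the organophosphate diisopropyl fluorophosphate (DFP) on day 8, and further intermittent CORT over 5 weeks. They were then given saline, with tissue taken at 6 h (n = 2), or the bacterial endotoxin lipopolysaccharide (LPS), with tissue taken at 6, 12 or 24 h (n = 3 each). No mouse without CORT and DFP was among the libraries, and saline was collected at 6 h only, so LPS at 12 and 24 h and the time of collection cannot be told apart. The libraries were made from whole tissue, so a larger share of a cell type and more accessible DNA per cell cannot be told apart.

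Open sites far from genes include many enhancers, short DNA stretches that bind transcription factors and act on genes at a distance. Enhancers differ between tissues more than promoters do, and a tissue's enhancers lie in numbers around the genes that define its cells. Frontal cortex is built of layered excitatory neurons, with Cux1 and Rorb among the transcription factors of the upper layers and Fezf2, Tle4 and Foxp1 among those of the deep layers. Prox1 and Zbtb20 mark hippocampal neurons.

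Most of the regions were small. Of the 8535, 7742 were a single bin, 769 were 2 bins, 23 were 3 bins and 1 was 4 bins wide. Of all bins open in the 11 cortex libraries, 5.05% were closed in every hippocampus library. Just outside the rule, 4042 bins were open in all 11 cortex libraries and 1 hippocampus library, and 4033 were open in 10 cortex libraries and no hippocampus library. In the plot of bins by number of libraries, the kept cell (9353 bins) held more bins than either of these neighbours, and neither was empty.

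**Figure D1:**
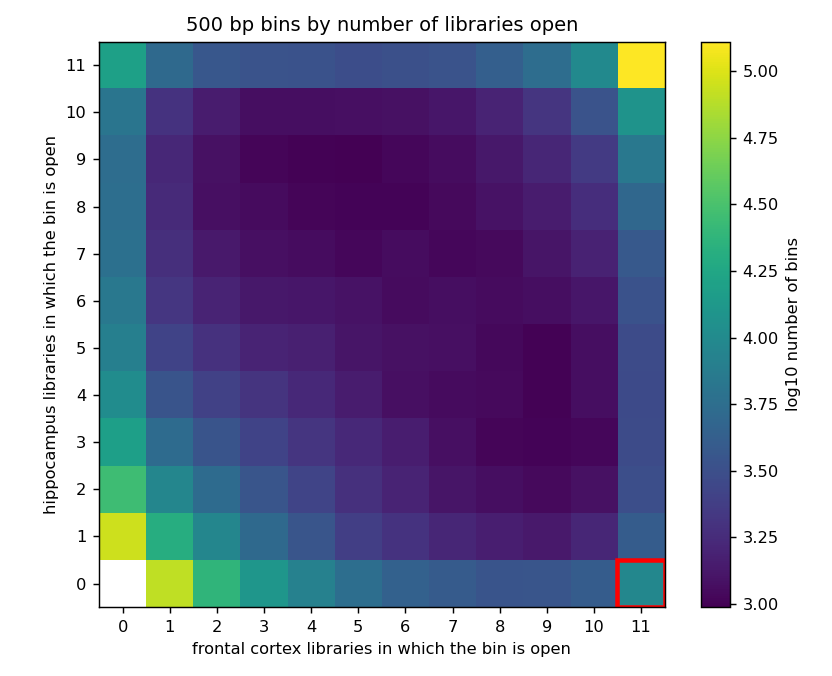
Number of 500 bp bins (log10 colour scale) by how many of the 11 frontal cortex libraries (x axis) and 11 hippocampus libraries (y axis) they were open in, with the bins open in no library left blank. The outlined cell holds the 9353 bins of the cortex-only regions, beside 4033 bins at 10 cortex libraries and 4042 bins at 1 hippocampus library.

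The label was checked against the peaks next to each region. In 6547 regions (76.7%) the cortical interval met no hippocampal interval of the same animal in any of the 11 animals, and these are called free-standing. In the other 1988 (23.3%) it met one in at least 1 animal, and in 290 in all 11 animals. Touching intervals do not show whether such a region is a site of its own. The division was made after the data were seen. A summit lay inside the region in all 11 cortex libraries for 6672 regions (78.2%) and in none for 575. Of the free-standing regions, 6055 held a summit in all 11 libraries and 1 in none, and of the regions that met a hippocampal interval 617 did in all 11 and 574 in none. For 5485 regions (64.3%) neither neighbouring bin was open in any hippocampus library, and 1561 (18.3%) were touched by a hippocampal interval over less than 100 bp.

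The strongest regions were largely of that second kind. Peaks were ranked by their deposited score within each library, and the percentile of a region's peak among all intervals of that library gives its strength. The 10 regions with the highest median percentile all met a hippocampal interval, 8 of them in all 11 animals. The first, chr2:169319001-169319500, lay 313008 bp from the nearest protein-coding gene and held a summit in none of the 11 libraries. Another, chr3:141909501-141910000, lay in Bmpr1b, which encodes a bone morphogenetic protein receptor. It too met a hippocampal interval in all 11 animals, at a median percentile of 99.3.

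Free-standing regions were of middling strength. Their median percentile was 49.1 to 64.6 across the 11 cortex libraries, and that of the regions meeting a hippocampal interval was 71.8 to 78.9. Over all cortex-only regions it was 53.5 to 66.9. The ranges of both classes did not overlap. Of the 8535 regions, 584 (6.84%) were among the 50000 strongest peaks in all 11 libraries and 5488 (64.3%) in none. Of those 584, 163 were free-standing.

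**Figure D2:**
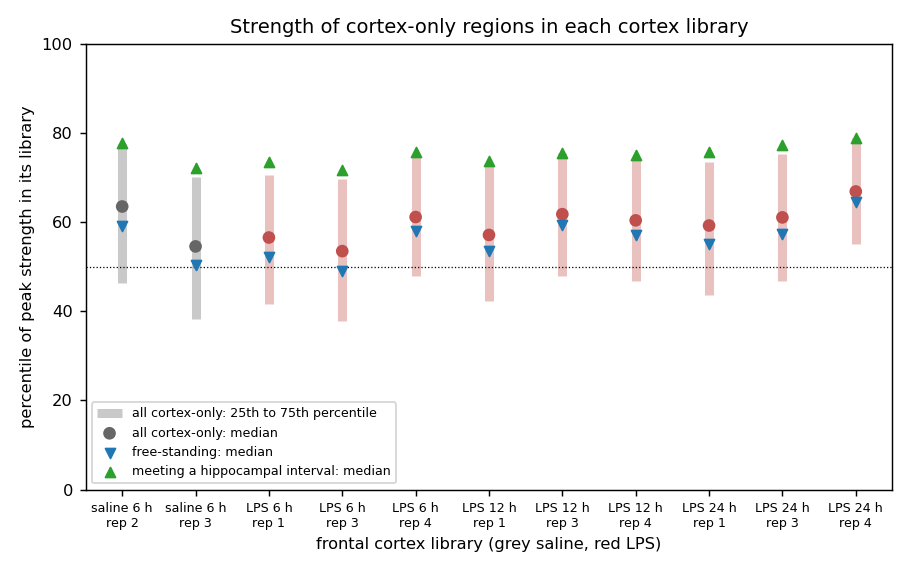
Percentile of peak strength (y axis) of the cortex-only regions in each of the 11 frontal cortex libraries (x axis), with circles for the median and bars for the 25th to 75th percentile of all regions and triangles for the medians of both classes. The free-standing medians (49.1 to 64.6) lie below those of regions meeting a hippocampal interval (71.8 to 78.9) in every library.

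The strongest free-standing region, chr3:27503001-27504000, lay in Fndc3b, a membrane protein with fibronectin domains. The fold over background of its peak, the authors' own value per library, was 12.6 and 9.29 in saline and 10.6 to 15.3 in the 9 LPS libraries (median 12.8). 1 saline library lay within the LPS range and the other below it, and a summit was inside in all 11 libraries. A region 31410 bp from Kcne4, a modulating subunit of voltage-gated potassium channels, had folds of 14.2 and 10.7 in saline and 12.2 to 15.4 in LPS. In Cntnap2, a neurexin-family adhesion protein that clusters potassium channels at the axon, chr6:45559501-45560500 had 14.99 and 9.92 in saline and 9.22 to 17.3 in LPS. The widest region, 2000 bp at chr15:10425501-10427500, lay 15342 bp from Agxt2 and was free-standing at a median percentile of 91.1.

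Whether the regions hold in an animal that did not choose them was examined by applying the rule to 10 animals and reading the 11th. The bins so chosen were open in the cortex of the left-out animal for 91.8 to 99.3% (median 96.1%). They were open in its hippocampus for 1.16 to 9.59% (median 2.80%). For comparison, bins open in the cortex of the other 10 animals, whatever their hippocampus, were open in the left-out hippocampus for 79.5 to 87.7%. These comparison bins were open in the left-out cortex for 96.5 to 99.6% (median 98.9%). They were not required to be closed in any hippocampus, so the gap on that side follows largely from the choice of bins. Of the chosen bins, the highest hippocampal share, 9.59%, belonged to saline replicate 2. Its hippocampus library also had the most intervals of that tissue (307186, against 228324 to 284783 in the other 10). The lowest cortical share, 91.8%, belonged to saline replicate 3. Both conditions together held for 85.4 to 97.7% of bins, and for the mirror rule for 86.2 to 98.1%.

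Cortex-only regions lay away from promoters. Within a protein-coding gene stood 46.2% of them, against 61.2% of the regions open in all 22 libraries and 43.8% of the hippocampus-only regions. Beyond 100 kb of any such gene stood 26.0%, against 11.8% and 27.9%. Only 231 (2.71%, Wilson 95% interval 2.38 to 3.07%, counting error only) came within 1 kb of either end of a gene, against 14.98% of the shared and 2.32% of the hippocampus-only regions. The free-standing regions gave 2.57% and those meeting a hippocampal interval 3.17%. The plot of positions shows the same order in both classes.

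**Figure D3:**
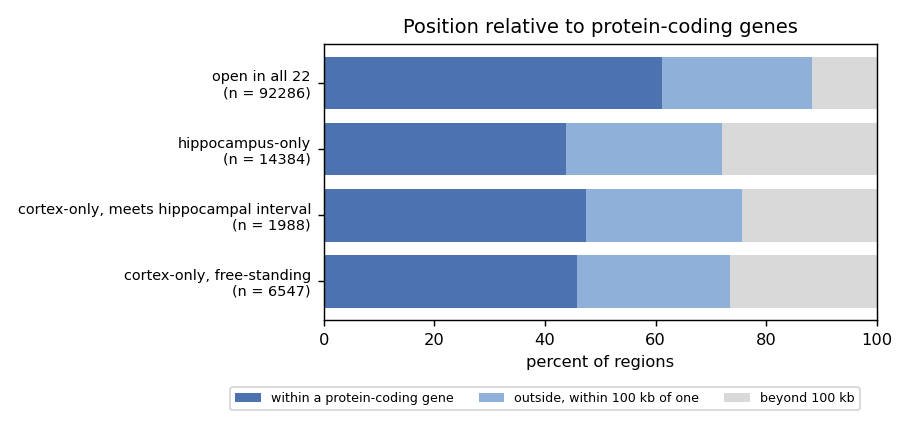
Percent of regions (x axis) within a protein-coding gene, outside but within 100 kb of one, and beyond 100 kb, for both classes of cortex-only regions, hippocampus-only regions and regions open in all 22 libraries. Beyond 100 kb lie 26.5% of free-standing cortex-only regions and 11.8% of regions open in all 22 libraries.

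A transcription start lay within 1 kb of 80 of the 8193 regions outside chromosome 18, which the start table does not cover (0.976%, against 12.0% of the shared regions), and inside 15. The table holds starts for 16456 of 20661 protein-coding genes. Starts inside a region included those of Il12b, the shared subunit of the cytokines interleukin 12 and interleukin 23, of Cd209a, a C-type lectin of dendritic cells, and of Adra1b, the alpha-1B adrenergic receptor through which noradrenaline acts on cortical neurons. The Il12b region had folds of 6.99 and 6.77 in saline and 6.32 to 9.18 in LPS, so the groups overlapped. A bin next to the Il12b region was open in all 11 hippocampus libraries. The Adra1b region was weaker, with 6.15 and 3.76 in saline and 2.72 to 5.85 in LPS, and met a hippocampal interval in 2 animals. It held a summit in only 1 of the 11 cortex libraries.

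The stretches before these 3 starts are shown as examples of cortex-only DNA at a start, 2 from free-standing regions and 1 with the AP-1 site searched for. They are RefSeq sequences of GRCm38.p6, cut to the region and ending at the base before the start: chr11:44399813-44400062 on the plus strand for Il12b, chr8:3748985-3749234 on the minus strand for Cd209a and chr11:43901238-43901487 on the minus strand for Adra1b. Capitals mark matches to the motifs named below.

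Il12b: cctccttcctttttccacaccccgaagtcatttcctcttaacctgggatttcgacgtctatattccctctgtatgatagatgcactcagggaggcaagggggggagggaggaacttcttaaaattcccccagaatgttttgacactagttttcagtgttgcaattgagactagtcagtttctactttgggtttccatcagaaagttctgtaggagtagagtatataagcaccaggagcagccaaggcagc

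Cd209a: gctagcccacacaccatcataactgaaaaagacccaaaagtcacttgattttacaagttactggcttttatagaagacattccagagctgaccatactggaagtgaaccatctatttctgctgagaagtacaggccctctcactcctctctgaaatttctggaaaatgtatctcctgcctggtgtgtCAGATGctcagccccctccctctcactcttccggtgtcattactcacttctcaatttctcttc

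Adra1b: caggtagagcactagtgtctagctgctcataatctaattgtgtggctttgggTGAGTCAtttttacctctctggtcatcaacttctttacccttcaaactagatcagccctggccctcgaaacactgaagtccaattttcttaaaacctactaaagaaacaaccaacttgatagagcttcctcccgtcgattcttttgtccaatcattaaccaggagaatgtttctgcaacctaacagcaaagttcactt

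The Il12b stretch held 46.0% G and C, that of Cd209a 44.8% and that of Adra1b 41.6%. The Cd209a stretch held CAGATG, an E-box bound by neuronal basic helix-loop-helix factors, and the Adra1b stretch held TGANTCA, the AP-1 site. Across all 62 start windows (250 bases before a start, from 53 genes, so some share bases) that cortex-only regions covered by at least 100 bp, the median G and C content was 48.2%. It was 61.2% for the 13587 windows at regions open in all 22 libraries and 52.4% for all 31396 windows. G and C content and motifs were counted over whole windows here, and a window can reach outside its region. Matches on either strand to CAGATG were in 15 of the 62 (24.2%), against 14.5% of all windows, 10.2% of those at shared regions and 38.4% of the 73 at hippocampus-only regions. TGANTCA was in 6 (9.68%, against 6.77% of all windows). TAATTA (homeodomain), TAGGTCA (ROR receptors) and a CTCF core motif were in 1 each, against 4.81%, 2.25% and 2.11% of all windows. TGACGTCA (cAMP response element), ATGCAAAT (POU octamer), the RFX X-box, the MEF2 motif (whose matches can hold TAATTA) and the glucocorticoid response element were in none, and were in 0.0637 to 3.24% of all windows. Of 1005 miRNA hairpins, 2 overlapped cortex-only regions, Mir6343 and Mir3964.

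To see which genes the regions surrounded, each was given to the nearest protein-coding gene within 100 kb. This assigned 6317 regions to 3664 of 20661 genes (17.7%), of which 2401 had 1 region and 24 had 10 or more. Long genes gather more regions: the median length was 1086 kb for genes with 10 or more, and 17.5 kb over all genes. Hippocampus-only regions lay at 2056 of the 3664 genes, so many genes had different sites open in each tissue. Over all genes, cortex-only regions were 37.9% of the regions open in 1 tissue only.

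Ptprd, a receptor tyrosine phosphatase that organises synapses, had the most, 21 regions, 18 of them free-standing, beside 6 hippocampus-only. Arhgap15, a Rac-inactivating protein, had 16 (3 hippocampus-only), and the neuronal adhesion protein Cntn4 had 16 (4). Cdh12, a type II cadherin, had 15, all free-standing, beside 6. Asic2, an acid-sensing channel, had 15 (6), Pde4d, a cAMP phosphodiesterase, 15 (12), and the nuclear receptor Rora 14 (7). Robo2, the Slit receptor of axon guidance, had 12 (13), and Cntnap2 had 11 (11), so cortex-only regions did not outnumber hippocampus-only ones at either gene.

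The 38 genes with at least 4 cortex-only and no hippocampus-only regions included Bmpr1b (10 regions, 4 free-standing), Exph5 (7), Rorb (7), Fap (6), Ntrk2 (6), which encodes the receptor of brain-derived neurotrophic factor, and Igf1r (5). This set was chosen after the values were seen. The 6 regions of Fap, a serine protease of activated fibroblasts, lay within 53.5 kb (chr2:62503501-62557000) and formed the largest cluster with gaps of at most 20 kb. In all, 2070 regions (24.3%) lay in 947 clusters of 2 or more.

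Genes of cortical layers are described from lists compared with the 37.9% over all genes. The upper-layer list had 36 cortex-only and 33 hippocampus-only regions (52.2% cortex-only), at 13 of 19 genes. Rorb, a nuclear receptor of layer IV, had 7 against 0. Unc5d, a netrin receptor, had 9 against 5, and Cux1, a homeodomain factor, 4 against 3. The list was split, with 7 genes having more cortex-only regions, 6 more hippocampus-only and 2 equal numbers. The adhesion protein Cdh13 had 3 against 12, and Rasgrf2, a Ras activator, and Kitl, a growth factor, each had 1 against 3. The deep-layer list had 36 against 68 (34.6%), with Ldb2 at 8 against 5, Foxp1 at 6 against 11, Fezf2 at 1 against 0 and Bcl11b at 0 against 1. Of its genes, 5 had more cortex-only regions, 12 more hippocampus-only and 5 equal numbers. The hippocampal list had 11 against 56 (16.4%), with Prox1 at 0 against 6 and Zbtb20 at 2 against 19. In that list 11 genes had more hippocampus-only regions, 2 had more cortex-only and 1 had equal numbers. The striatal list, for a region that borders the cortex, had 16 against 18 (47.1%), a share between those of both cortical lists.

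The 7 Rorb regions all lay within the gene (chr19:18930609-19111196), and 4 were free-standing. Their peaks were uneven. At chr19:18947501-18948000 the percentile was 80.1 and 86.6 in saline and 88.5 to 93.8 in LPS. At chr19:19061501-19062000, which lay 18000 bp from the nearest bin open in any hippocampus library, it was 47.6 and 64.6 in saline and 69.4 to 85.0 in LPS. At chr19:19076501-19077000 it was 65.4 and 11.9 in saline and 7.18 to 59.2 in LPS. In 4 of the 7 regions all 9 LPS libraries were above both saline libraries, and in the other 3 the groups overlapped. This was noticed after the values were seen. Of the 7, 0 overlapped a region of the authors' deposited tables at an FDR of 0.05. In the regions of Unc5d (9), Cux1 (4) and Kcnq5 (12) no region had LPS wholly above or wholly below saline.

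Over all cortex-only regions, the percentile was above both saline libraries in all 9 LPS libraries for 402 (4.71%) and below both for 196 (2.30%). Among the 127731 regions open in all 11 cortex libraries these shares were 3.97% and 1.97%. By fold over background, 4.60% were above and 1.02% below, against 3.59% and 0.691%. Each share lay above that of the background. The differences were not tested, so they are not read as a result about the cortex-only regions.

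Ion channel and receptor genes were compared in the same way. Potassium channel genes had 89 cortex-only and 75 hippocampus-only regions (54.3%), at 28 of 43 genes. Kcnq5, a subunit of the muscarine-sensitive M current, had 12 against 2, of which 11 were free-standing, and folds were modest, with medians of 2.53 to 4.70 across its 12 regions. Kcnh7 and Kcnh5, of the ether-a-go-go family, had 9 against 2 and 7 against 3. Of the list, 17 genes had more cortex-only and 13 more hippocampus-only regions, the latter including Kcnk10 at 0 against 4, Kcna4 and Kcnb2 each at 1 against 4 and Kcnd3 at 2 against 5. The delta protocadherins, adhesion proteins that sort neurons and axons, had 21 against 15 (58.3%), with Pcdh7 at 8 against 2, Pcdh9 at 7 against 5 and Pcdh10 at 3 against 0. Pcdh8 was at 0 against 5, and Pcdh18 and Pcdh20 each at 0 against 1, so 4 genes had more cortex-only and 3 more hippocampus-only regions. Axon guidance and adhesion genes had the most regions, 140, but 217 hippocampus-only (39.2%), close to the share over all genes. Among these, Sema5a had 6 against 15, Dcc 7 against 17, Ephb1 6 against 2 and Sema3a 4 against 0.

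Glutamate receptor genes had 48 against 70 (40.7%), with Grm7 at 9 against 6 and Grm3, a presynaptic and glial metabotropic receptor, at 5 against 1. These 2 are not typical of the list, in which 9 genes had more hippocampus-only regions, 5 more cortex-only and 3 equal numbers. GABA receptor genes had 22 against 25 (46.8%), with Gabbr2, a subunit of the metabotropic GABA-B receptor, at 5 against 2. Neuromodulator receptor genes had 29 against 40 (42.0%), with Adra1b and the muscarinic receptor Chrm3 each at 4 against 0. More of these genes had more hippocampus-only (19) than more cortex-only regions (12), among them the serotonin receptor Htr4 at 0 against 5, and Adra2c and Npy2r each at 0 against 3. Of Adra1b's 4 regions, 3 lay outside the gene, and chr11:43967501-43968500 had folds of 9.94 and 8.71 in saline and 7.75 to 12.5 in LPS. Glucocorticoid genes had 12 against 16 (42.9%). Nr3c1, which encodes the glucocorticoid receptor that CORT activates, had 4 against 2. Nr3c2, which encodes the mineralocorticoid receptor that CORT also activates, had 0 against 9, and Fkbp5, a target of the glucocorticoid receptor, had none of either kind.

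The remaining lists were mostly sparse. Astrocyte genes had 12 against 17, oligodendrocyte genes 6 against 5, microglial genes 4 against 6, endothelial and mural genes 7 against 16 and blood genes 1 against 1. Inhibitory neuron genes had 14 against 31 and excitatory neuron genes 24 against 23. Of the excitatory list, 3 genes had more cortex-only regions, 6 more hippocampus-only and 3 equal numbers. Its gene Kcnh7 is counted among the potassium channel genes too. Genes of forebrain patterning had 11 against 30 (26.8%), with more hippocampus-only regions at 12 genes and more cortex-only at 3. Inflammatory genes had 6 against 14 and activity-induced genes 8 against 16. A difference in the makeup of both tissues was not tested.

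**Figure D4:**
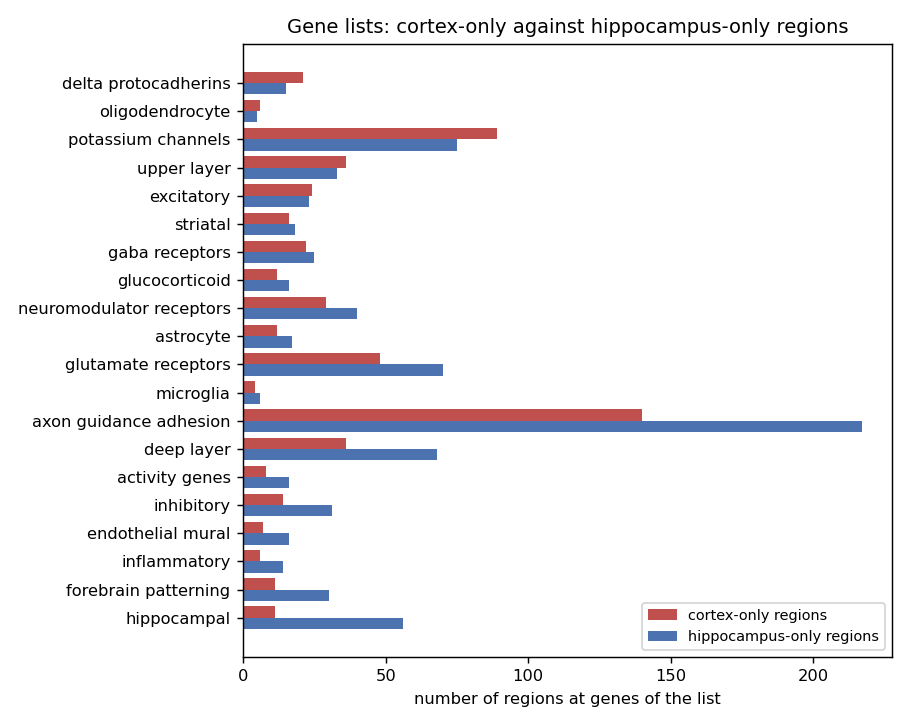
Number of cortex-only and hippocampus-only regions (x axis) assigned to the genes of each list (y axis), for lists with 10 or more regions in all, ordered by cortex-only share. The delta protocadherins (21 against 15) stand at the top and the hippocampal list (11 against 56) at the bottom.

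With LPS and with saline, the share of regions with strong peaks differed by less than the spread between libraries. The share among the 50000 strongest peaks was 19.3 and 16.4% in saline (mean 17.8 ± 2.07%, SD, n = 2) and 14.4 to 19.7% in LPS (mean 17.8 ± 1.93%, SD, n = 9). The saline values lay inside the LPS range. The difference, LPS minus saline, was -0.026 percentage points, and the exact two-sided permutation test gave p = 0.909, where the smallest possible p is 0.0364. The mean was 16.9 ± 2.19% at 6 h, 18.9 ± 0.955% at 12 h and 17.6 ± 2.52% at 24 h (SD, n = 3 each), and the exact permutation test over time gave p = 0.486. Each time against saline gave p of 0.6 to 1, where 0.2 is the smallest an exact permutation test of 3 against 2 can give. All 5 adjusted p-values (Benjamini-Hochberg) were 1. Regions open in all 22 libraries gave 46.1 ± 1.24% in saline (SD, n = 2) and 47.0 ± 0.421% in LPS (SD, n = 9).

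**Figure D5:**
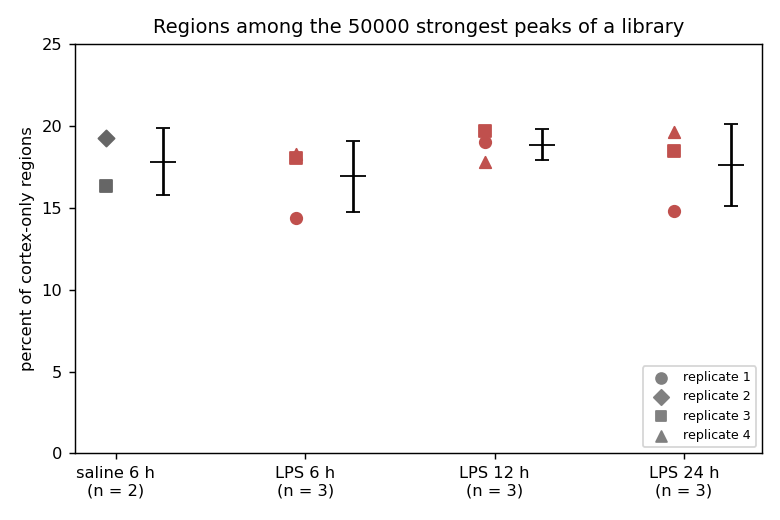
Percent of the 8535 cortex-only regions with a peak among the 50000 strongest of a library (y axis) by group (x axis), 1 symbol per library by replicate number, with bars for the mean and SD. Saline (16.4 and 19.3%) lies within the range of the LPS libraries (14.4 to 19.7%).

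The authors' deposited tables list regions that differ between LPS and saline at an FDR of 0.05 or less, and they were intersected with the cortex-only regions at an overlap of at least 50% of the shorter. In cortex at 24 h, 67 of 8535 (0.785%) were listed as higher, against 0.828% of the regions open in all 11 cortex libraries, and 17 (0.199%) as lower, against 0.15%. At 6 h, 1 was higher (0.0117%) and 3 lower (0.0351%), against 0.0548% and 0.0407%. At 12 h none was of either kind, against 0.000783% and 0.00783%. Per bin, which sets aside width, 0.716% of the cortex-only bins were higher and 0.182% lower at 24 h, against 0.637% and 0.123%. At this FDR the share listed as higher at 24 h is near the background. The share listed as lower rests on 17 regions and lies above the background by region and per bin, a difference that was not tested. Of the 67, 64 were free-standing, and 40 genes were assigned to them. In hippocampus, where these regions were closed by the rule, 7 were listed as higher (0.082%, against 0.32% in the background) and 3 as lower (0.0351%, against 0.29%) at 12 h, and none at 6 or 24 h (0 and 0.00391%, 0.0243% and 0.0102%). The 3 cortex comparisons share the same 2 saline libraries.

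Among the 67 was chr4:66894501-66895000, 47919 bp from Tlr4, the receptor that recognises LPS, with an FDR of 0.000195 in the authors' deposited table. Its folds were 4.42 and 2.25 in saline, 6.398, 2.53 and 3.90 at 6 h, 4.06, 3.58 and 4.33 at 12 h, and 8.79, 7.14 and 6.38 at 24 h. The 24 h values lay above both saline values, and those at 6 and 12 h overlapped saline. A region 41090 bp from the adhesion protein Cntnap3 had 4.42 and 3.91 in saline and 7.99, 8.03 and 6.85 at 24 h (FDR 0.000194 in the authors' deposited table). Other listed regions overlapped: in Tbl1xr1, a corepressor subunit, the folds were 8.66 and 3.61 in saline and 4.79, 5.13 and 4.98 at 24 h (FDR 0.000343 in the authors' deposited table). In Abcb1a, a drug efflux transporter, they were 4.10 and 2.55 in saline and 3.68, 4.46 and 5.76 at 24 h (FDR 0.0479 in the authors' deposited table). The authors' own label for the region in Abcb1a names another gene, Rundc3b. Their label for the region near Tlr4 names Tlr4 in the form used for the region within Tbl1xr1, although it lies outside the RefSeq gene. Tlr4 and Abcb1a were the only genes of the lists among the 40 assigned. Of the 67, all 3 folds at 24 h were above both saline folds in 49 and overlapped saline in 18, and of the 17 listed as lower, all 3 were below in 8 and overlapped in 9. These regions were chosen by the authors' test on the same libraries. How often the folds at 24 h separate from saline over all cortex-only or background regions was not counted. The counts of separated regions therefore describe the listed regions only and are not read as a result.

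In some listed regions 1 library stood apart from its group. The region 79274 bp from the kinesin Kif21a had an FDR of 1.41e-20 for higher at 6 h in the authors' deposited table. Its folds there were 12.1, 4.76 and 6.33, against 4.15 and 4.66 in saline, so all 3 lay above saline and 1 stood far above the other 2. The region 23768 bp from the sarcomere protein Actn2 was listed in the authors' deposited table as lower at 6 and 24 h (FDR 0.0153 and 6.10e-06). Its saline folds were 11.01 and 3.91, and its LPS folds 3.91 to 6.76, so saline replicate 2 alone was above LPS. In Exoc6b, a subunit of the exocyst that tethers secretory vesicles, the same held, with 9.74 and 3.61 in saline and 2.81 to 5.46 in LPS.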

How the data were processed

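Frontal cortex and hippocampus of 11 mice gave 22 OMNI-ATAC-seq libraries, made from frozen pieces of 20 to 30 mg and sequenced as 50 bp read pairs, as the labels' protocols state. Tools named by the submitters' processing notes are MACS2 2.2.7.1, Bowtie2 2.4.4, FastQC 0.11.9 and Trim Galore 0.6.7, with the GRCm38 build. Shifting of reads to the transposase cut: not given in the sources used here. For each library the authors deposited its peaks with 4 measures, a score, a -log10 q, a -log10 p and a fold ratio to background. They served only to order, describe or filter the peaks of 1 library. The lists hold weak peaks (lowest -log10 q 0.501 to 0.643 per library), and their depth is unknown. There were 204599 to 280936 intervals in cortex and 228324 to 307186 in hippocampus. The authors' deposited differential tables hold a direction and a number read as 10 times the negative log10 of the FDR, and no fold changes.

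Intervals sharing several summits were counted once, bins and regions were made in Python 3.11.15 with numpy 2.4.6 and pandas 2.3.3, and the rule and the tests were checked on simulated data. Genes are RefSeq, GRCm38.p6; no genome sequence was used, so sequences and motifs cover start windows only. There were 21 gene lists, with 478 of 492 genes matched on chromosomes 1 to 19. Genes and regions were named by a written rule: the 15 genes with most regions, those with most per 100 kb, up to 4 genes per list, and the strongest, widest, start-near, differential and clustered regions. A selection of those is printed, with additions said to be chosen after their values were seen, and some genes of the lists are not reported here. The members and lists were chosen with earlier results of these data known. A baseline animal left out by the submitters for low depth is not analysed here. Exact two-sided permutation tests compared libraries, each from a separate animal within its tissue. Same-numbered LPS libraries were not treated as pairs, and alternatives are given in the closing section.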

Additional observations from a re-analysis of the deposited data

Results flagged for a closer look

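In the reading of left-out animals, the cortex library of LPS 6 h replicate 3 was open in 92.2% of the bins chosen by the other 10 animals, and the next lowest of the 9 LPS animals was at 96.1%. Its gap to the others was large against the range of the 9 values by Dixon's criterion. That library also had the fewest intervals of the cortex libraries, 204599, and the part of this in the result was not tested. Of 6 such values checked, 1 met the criterion, which chance meets in about 1 of 20 groups.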

How the results depend on the processing

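The number of regions, 8535, was 8325 to 9296 with an overlap of 1 bp (8797), bins from position 250 (8505), -log10 q at 2 or above (8325) and the 150000 strongest peaks (9296), and 7505 with -log10 q of 5 or more. It fell to 4861 with an overlap of 250 bp and to 3786 with the 50000 strongest peaks, and rose to 17066 with at least 10 cortex and at most 1 hippocampus library. Leaving out each animal gave 8740 to 9974. Which bins are chosen depends more on the settings: of the 9353 bins, 82.9% were also chosen with 1 bp, 48.4% with -log10 q of 5 or more, 21.8% with 250 bp and 7.06% with the 50000 strongest peaks. The share within 1 kb of a gene end, 2.71%, was 2.66% with 1 bp and 2.82% with -log10 q of 5 or more, and 10.7% within 5 kb.

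The LPS difference in the share of strong regions turned direction with the 100000 strongest peaks (1.56 percentage points) and with -log10 q at 5 or above (3.57), where lists are unequal, and ranged from -1.49 to 1.44 on leaving out each library. Without saline replicate 2 it was 1.44, and without saline replicate 3 it was -1.49. The exact permutation p was 0.6 to 1 under every alternative run, the free-standing regions alone included, an alternative chosen after seeing the data. Over time the range of group means, 1.94, is by construction the same with the replicate number as a block (exact permutation p = 0.389), and leaving out each library gave 1.23 to 2.63. Deviations of same-numbered libraries had correlations of -0.142 to 0.133 over regions, and 2 of 9 pairs were over 0.1, so same-numbered libraries were not treated as pairs.

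Overlaps with the authors' deposited tables moved with the settings. Within 1 kb the counts were 127 (cortex 24 h, higher), 3 and 5 (6 h, higher and lower), and for hippocampus 26 and 19 (12 h, higher and lower) and 1 (24 h, higher). With 1 bp they were 2 for cortex at 6 h, higher, and for hippocampus 12 and 6 at 12 h and 1 at 24 h, higher. At an FDR of 0.01 they were 12 and 6 for cortex at 24 h, 0 at 6 h, lower, and 1 and 1 for hippocampus at 12 h. Among regions open in all 11 cortex libraries the shares for cortex at 24 h, higher, were 1.23% within 1 kb, 0.864% with 1 bp and 0.315% at an FDR of 0.01, against 1.49%, 0.926% and 0.141% of the cortex-only regions. For lower they were 0.0572% at an FDR of 0.01, against 0.0703%. For hippocampus at 12 h, within 1 kb, they were 0.414% (higher) and 0.442% (lower), against 0.305% and 0.223%. With 1 bp these hippocampal shares were 0.327% and 0.295%, against 0.141% and 0.0703%. At an FDR of 0.01 they were 0.0376% and 0.0462%, against 0.0117% each. For cortex at 6 h, within 1 kb, the shares were 0.0736% (higher) and 0.0626% (lower), against 0.0351% and 0.0586%. The cause was not tested. Where the tables hold few regions, counts of 1 to 3 carry little weight.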
